A study of Arabidopsis thaliana with 4 samples.

Results

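The transcripts described here are those of the plastid genome, the circular chromosome of the chloroplast, in Arabidopsis thaliana seedlings. A probe set, the group of short oligonucleotides that measures 1 transcript on the array, was taken as a member when the deposited annotation gave it exactly 1 locus and that locus carried the plastid prefix ATCG. This selected 72 of 22746 probe sets, one for each of 72 loci. The rule itself used no measured value, although the members were chosen with earlier results of these data known. All 72 were called present, that is above the array's detection limit, on all 4 arrays.

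Seedlings of the wild-type accession Columbia 0 were 5 days old when their RNA was taken. The ASP group had grown on plates that contained ASP, a synthetic piperazine whose ring nitrogens carry a bromophenoxyacetyl and a fluorophenylsulfonyl group, and the control group on the same medium without it. Both groups shared the medium with 0.1% sucrose, a temperature of 22 to 24 °C and a cycle of 16 h light and 8 h dark, and each was measured on 2 arrays that the labels call biological replicates. The dose of ASP is not given in the sources used here. Nothing in the labels says that the replicates came from separate cultures, so the p-values measure only the spread between these arrays.

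The plastid genome encodes part of the photosynthetic machinery, part of the plastid ribosome and the catalytic core of a bacterial-type RNA polymerase, and the nucleus encodes the remaining subunits of the same complexes. The bacterial-type polymerase (PEP) needs nuclear-encoded sigma factors to find its promoters and a set of nuclear-encoded associated proteins to work, while nuclear-encoded phage-type polymerases (NEP) transcribe other plastid genes, the rpoB cluster of PEP core genes among them. Most plastid genes lie in clusters transcribed together, and their RNAs are then cut, spliced, edited and stabilised by nuclear-encoded proteins. Plastid messengers mostly lack the stable poly(A) tail on which the labelling of 3′ expression arrays primes, so their signal on such arrays depends on priming that nuclear messengers do not need.

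No plastid-encoded transcript differed between ASP and control seedlings past the threshold, an adjusted p under 0.05 in limma's moderated test after Benjamini-Hochberg adjustment across the whole array. This count of 0 of 72 stands against 0% of all 22746 probe sets. With limma's intensity trend, which lets the expected spread depend on brightness, 0 of 72 were called as well, against 0.317% of all probe sets. The adjusted p of the members ran from 0.651 to 0.998 without the trend and from 0.212 to 0.998 with it. At an unadjusted p under 0.05 there were 2 members with a higher mean in ASP, rbcL and rpoA, and 0 with a lower one, where 3.33% of all probe sets were higher and 7.42% differed either way. With the intensity trend 7 members had a higher mean at that unadjusted limit, against 4.69% of all probe sets. None of the 72 was among the 148 probe sets in the authors' deposited table of differing probe sets, which used a p of 0.05 and a 2-fold limit. The authors' deposited table seems to rest on 3 columns per group, where the series holds 2 samples per group, so it may not rest on the same arrays.

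The differences were small and leaned one way. The mean log2 signal was higher in ASP by any amount for 65 of 72 members, against 47.5% of all probe sets and 50.5% of the 14261 probe sets detected on every array. The median difference, ASP minus control, was 0.13 on the log2 scale, beside -0.02 over all probe sets and 0.00 over those present on all 4 arrays. Of the 72 members, 53 lay within 0.2 of 0, 27 within 0.1, 6 at 0.3 or more, and the members ran from -0.83 for ndhF to 0.46 for rpoA. Both ASP arrays lay above both control arrays for 24 members, against 18.5% of all probe sets and 21.4% of those present on all 4 arrays. For 0 members did both ASP arrays lie below both control arrays, against 20.9% of all probe sets. In either direction the groups were apart for the same 24 of 72, 33.3%, against 39.4% of all probe sets, so the members did not separate more often than other probe sets.

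The lean rested on particular arrays. Without control replicate 2, 43 of 72 members were higher in ASP and the median difference was 0.05. Without ASP replicate 2 the count was 44 and the median 0.04. The median was 0.22 without ASP replicate 1 and 0.21 without control replicate 1, with 69 and 66 members higher. With the arrays centred on the hybridisation spike-ins, control transcripts added in fixed amounts, 48 members were higher with a median of 0.05. The median of all probe sets then moved to -0.10.

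**Figure D1:**
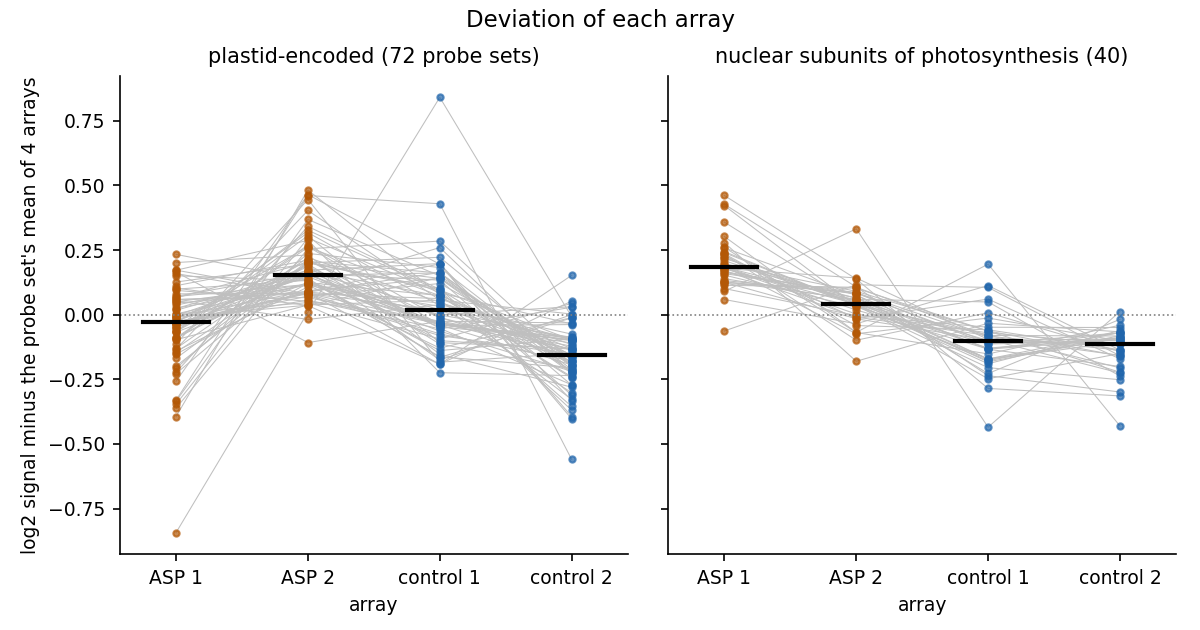
Each point is 1 probe set on 1 array, as log2 signal minus that probe set's mean over the 4 arrays, with ASP arrays left of control arrays, grey lines joining a probe set's values and black bars at the medians. In the left panel the 72 plastid-encoded probe sets have medians of -0.03 and 0.16 on the ASP arrays and 0.02 and -0.16 on the control arrays, and the right panel shows the 40 nuclear-encoded subunits of photosynthesis.

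The array plot of deviations shows that the plastid-encoded transcripts moved together from array to array within a group as well as between groups. Of the 72 members, 51 were highest on ASP replicate 2 and 51 were lowest on control replicate 2. ASP replicate 2 exceeded ASP replicate 1 for 64 members, with a median difference of 0.15, where the median over the 14261 detected throughout was -0.01. Control replicate 2 lay below control replicate 1 for 61 members, with a median difference of -0.15 against 0.01 for those probe sets. Between single arrays the comparison therefore ran differently by pair. ASP replicate 1 against control replicate 1 had 31 of 72 members higher and a median of -0.05. ASP replicate 1 against control replicate 2 had 57 higher and a median of 0.10. ASP replicate 2 had 58 higher against control replicate 1, with a median of 0.15, and 69 higher against control replicate 2, with a median of 0.30. The median difference between ASP and control was thus no larger than the median difference between the arrays of either group, and for 17 of 72 members the group difference exceeded both within-group differences.

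The PEP core genes had the highest median of the complexes with more than 1 member, 0.30 over 4 genes. All 4 were higher in ASP and 2 lay wholly above the controls, against 21.4% of all probe sets present on all 4 arrays. Over all probe sets 39.4% were apart in either direction, and the counts of single complexes were not tested. rpoA (ATCG00740) encodes the alpha subunit, on which the polymerase assembles. Its log2 signal was 13.40 and 13.52 on the ASP arrays, against 13.00 and 12.99 on the control arrays. Both ASP arrays stood above the controls, which almost coincided, and the difference was 0.46 ± 0.14 (SE), with an unadjusted p of 0.040 and an adjusted p of 0.651 in limma. The 3 genes of the rpoB cluster encode the subunits that form the active site. rpoC1 (ATCG00180) measured 12.005 and 12.07 in ASP and 11.77 and 11.67 in control seedlings, groups that did not overlap, with a difference of 0.32 ± 0.14 (SE) and a limma adjusted p of 0.740. rpoC2 had a difference of 0.27 with overlapping groups. rpoB (ATCG00190) measured 8.36 and 8.56 in ASP and 8.57 and 8.13 in control seedlings, where control replicate 1 was as high as the higher ASP array, and its difference was 0.11. Without control replicate 2 the rpoB difference was -0.11.

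rbcL (ATCG00490) encodes the large, catalytic subunit of Rubisco, the enzyme that fixes carbon dioxide. It measured 12.38 and 12.41 on the ASP arrays, against 12.02 and 11.90 on the control arrays. The arrays of each group lay close together and the groups stood apart by more than either group's own spread. The difference was 0.43 ± 0.14 (SE), a ratio of 1.35 on the linear scale, with an unadjusted p of 0.048 and adjusted p of 0.671 in limma, or 0.214 with the intensity trend. No nuclear gene of the Rubisco small subunit family had a probe set of its own, so the partner subunit was not analysed here.

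**Figure D2:**
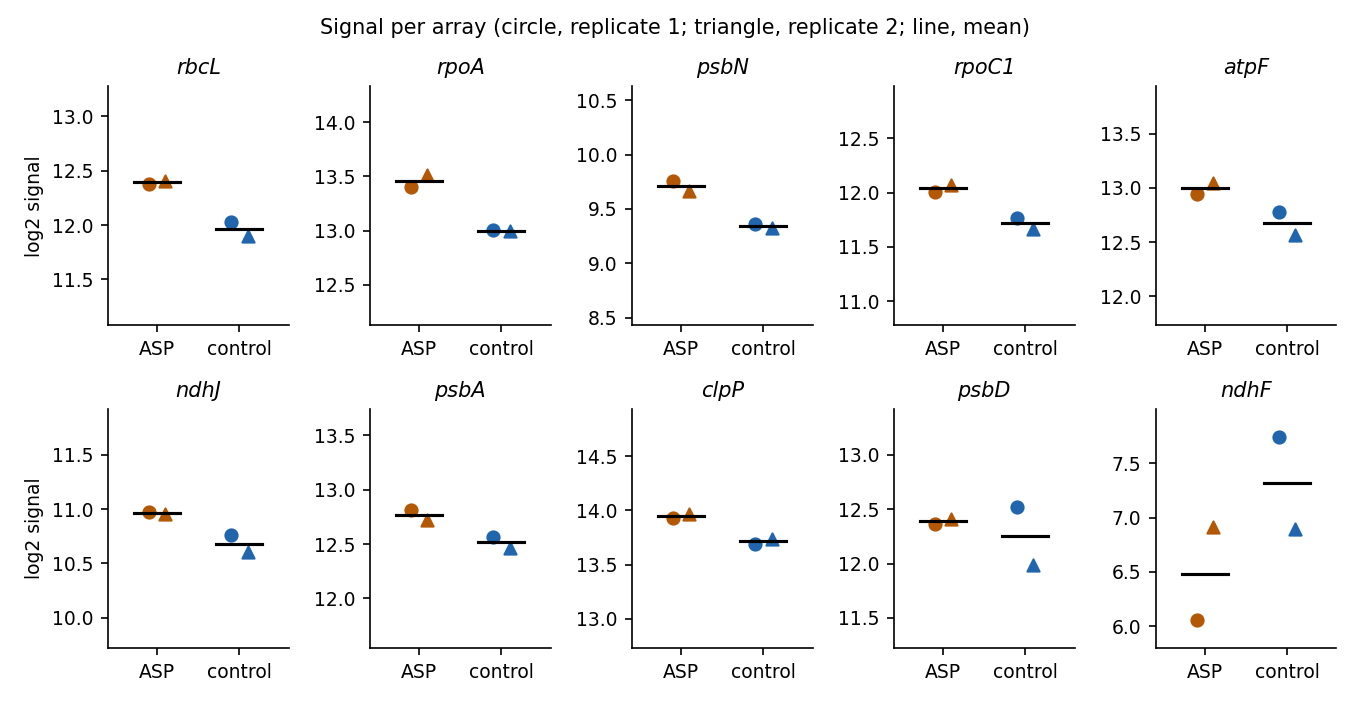
Log2 signal of 10 plastid-encoded genes, with ASP left of control in each panel, circles for replicate 1, triangles for replicate 2 and black lines at the group means; every panel's axis is centred on that gene and spans the same number of log2 units. rbcL, rpoA, psbN, rpoC1, atpF, ndhJ, psbA and clpP have groups that do not overlap, while psbD and ndhF overlap.

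Photosystem II splits water and feeds electrons into the thylakoid chain. Of the 15 plastid-encoded genes grouped with it, psbN included, 14 were higher in ASP, with a median difference of 0.14. For 6 the groups did not overlap (psbA, psbE, psbH, psbJ, psbN and psbZ), all with ASP above. Of all probe sets 39.4% were apart in either direction, and 21.4% of those present on all 4 arrays lay wholly above. psbA (ATCG00020) encodes the D1 reaction centre protein, which is damaged by light and replaced continually. Its log2 signal was 12.82 and 12.72 in ASP seedlings, against 12.57 and 12.46 in control seedlings. The ASP arrays were both above the controls and the difference was 0.25 ± 0.14 (SE), with a limma adjusted p of 0.785. psbD (ATCG00270), for the partner reaction centre protein D2, measured 12.37 and 12.41 in ASP and 12.52 and 11.99 in control seedlings. Its control arrays were further apart than the group means, which differed by 0.14. The difference for psbD without control replicate 2 was -0.13. psbN (ATCG00700), needed in tobacco for assembly of the reaction centre, measured 9.76 and 9.66 in ASP and 9.37 and 9.32 in control seedlings. It was grouped with photosystem II by its title. Its difference of 0.37 ± 0.14 (SE) was the largest of the 15 genes, with an unadjusted p of 0.069 and a limma adjusted p of 0.711. psbM (ATCG00220), a small subunit at the dimer interface, measured 14.77 and 14.50 in ASP and 14.58 and 14.57 in control seedlings, so that its ASP arrays fell on either side of the controls. Its difference was 0.06, -0.10 after quantile normalization and -0.02 with spike-in centring. psbK, a small core subunit, was the only member of this complex with a lower mean in ASP, by -0.06.

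Photosystem I passes electrons on to ferredoxin. Of its 5 plastid-encoded subunits 4 were higher in ASP, with a median of 0.13. For 3, psaB, psaI and psaJ, both ASP arrays lay above the controls, against 21.4% of all probe sets present on all 4 arrays. psaB (ATCG00340), which with psaA forms the core heterodimer, measured 14.37 and 14.33 in ASP seedlings, against 14.26 and 14.16 in control seedlings. The groups were apart by a margin close to their own spread and differed by 0.15, with a limma adjusted p of 0.846. psaA, transcribed with psaB, had a difference of -0.11 and overlapping groups.

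The cytochrome b6f complex links the photosystems. All 6 of its plastid-encoded subunits were higher in ASP, with a median of 0.17. petA, petB and petN lay wholly above the controls, as did 21.4% of all probe sets present on all 4 arrays. petB (ATCG00720), for cytochrome b6, measured 14.01 and 14.11 in ASP seedlings and 13.81 and 13.96 in control seedlings, a difference of 0.18. petL (ATCG00590), a small subunit, measured 11.78 and 12.14 in ASP and 11.86 and 11.52 in control seedlings. The difference of 0.27 for petL was the largest in the complex, yet ASP replicate 1 lay below control replicate 1.

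The chloroplast ATP synthase had 6 of 6 members higher in ASP, with a median of 0.19. Only atpE and atpF lay wholly above the controls, against 21.4% of all probe sets present on all 4 arrays. atpF (ATCG00130), a subunit of the stalk, measured 12.95 and 13.04 in ASP seedlings, against 12.78 and 12.56 in control seedlings. Both ASP arrays lay above the controls and the difference was 0.32 ± 0.16 (SE), with a limma adjusted p of 0.765. atpE (ATCG00470), the epsilon subunit that regulates the rotor, measured 14.71 and 14.62 in ASP and 14.47 and 14.40 in control seedlings, a difference of 0.23. Its cotranscribed neighbour atpB, for the catalytic beta subunit, overlapped with a difference of 0.09.

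The NDH complex carries electrons around photosystem I. Of its 10 members 8 were higher in ASP, with a median of 0.09. Among them ndhA, ndhD and ndhJ lay wholly above the controls, against 21.4% of all probe sets present on all 4 arrays. ndhJ (ATCG00420) measured 10.97 and 10.95 in ASP seedlings, against 10.76 and 10.60 in control seedlings, a difference of 0.28 ± 0.15 (SE) with a limma adjusted p of 0.773. ndhI (ATCG01090), which carries iron-sulphur clusters, measured 14.12 and 14.22 in ASP and 14.27 and 13.99 in control seedlings. The ndhI groups overlapped, its difference was 0.04 and it was -0.04 after both quantile normalization and spike-in centring. ndhF (ATCG01010), a membrane subunit, stood apart from all other members. It measured 6.06 and 6.91 in ASP seedlings, against 7.74 and 6.89 in control seedlings. The higher ASP array and the lower control array coincided, so the difference of -0.83 ± 0.48 (SE), with a limma adjusted p of 0.790, came from 1 low ASP array and 1 high control array. ndhF was also the dimmest member, with a mean of 6.90 over the 4 arrays. The other member lower in ASP, ndhH, had a difference of -0.05.

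The plastid ribosome translates all of these messengers. Of its 11 plastid-encoded small-subunit proteins 8 were higher in ASP, with a median of 0.08, and the groups overlapped for all 11. rps2 (ATCG00160) measured 12.29 and 12.65 in ASP and 12.37 and 12.22 in control seedlings, a difference of 0.18 that was -0.01 without ASP replicate 2. rps14 and rps18 had lower means in ASP, each by -0.03. All 7 large-subunit proteins were higher in ASP, with a median of 0.13. rpl14 alone lay wholly above the controls, where 21.4% of all probe sets present on all 4 arrays did. rpl20 (ATCG00660) measured 11.50 and 11.64 in ASP and 11.54 and 11.07 in control seedlings. Its difference of 0.27 came mainly from the low second control array. rpl33 (ATCG00640) measured 13.21 and 13.30 in ASP and 13.19 and 13.27 in control seedlings, interleaved values that differed by 0.03, by -0.02 after quantile normalization and by -0.05 with spike-in centring.

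Outside these complexes, 7 members encode other plastid proteins. All 7 had higher means in ASP, with a median of 0.09. Wholly above the controls were accD, clpP and ccsA, against 21.4% of all probe sets present on all 4 arrays. clpP (ATCG00670), the proteolytic subunit of the Clp protease, measured 13.93 and 13.97 in ASP seedlings, against 13.69 and 13.74 in control seedlings. The arrays of each group were within 0.05 of each other and the difference was 0.23 ± 0.13 (SE), with a limma adjusted p of 0.790. accD (ATCG00500), the plastid-encoded subunit of the acetyl-CoA carboxylase that starts fatty acid synthesis, measured 12.25 and 12.43 in ASP and 12.24 and 12.17 in control seedlings, a difference of 0.13 in which ASP replicate 1 and control replicate 1 nearly coincided. The remaining members were ccsA at 0.19, which attaches haem to cytochromes, matK at 0.09, a splicing factor, ycf4 at 0.06 and ycf3 at 0.00, assembly factors of photosystem I, and cemA at 0.03.

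**Figure D3:**
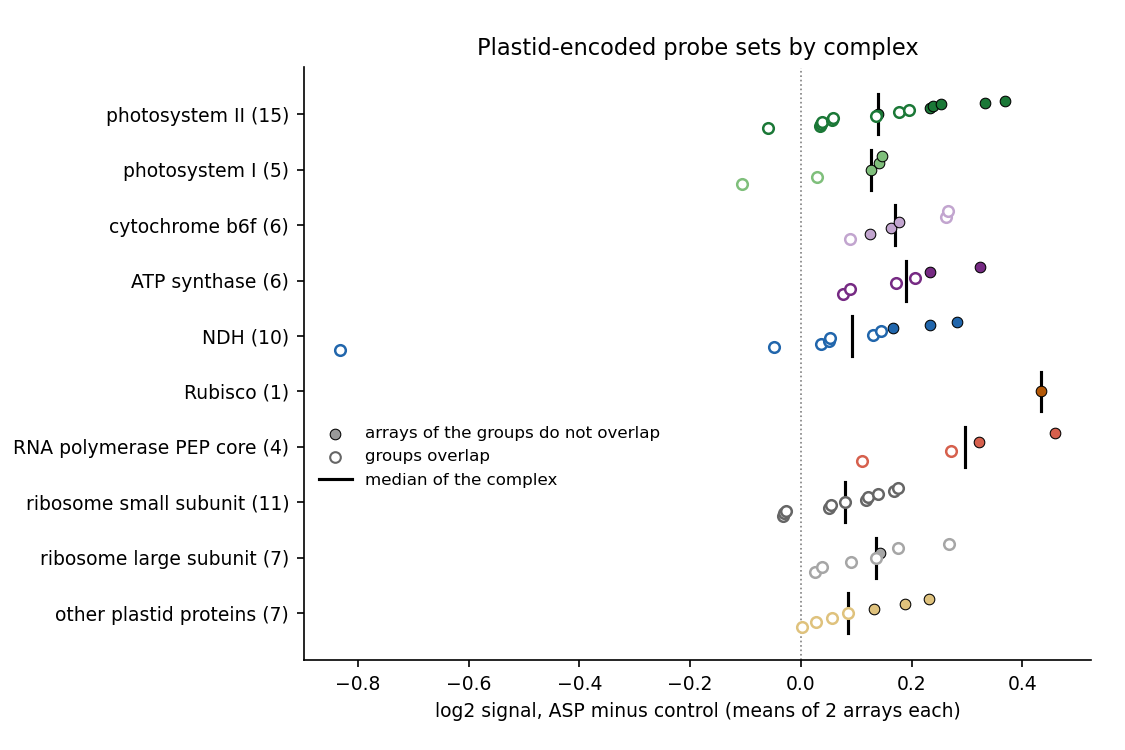
Each point is 1 plastid-encoded probe set, placed by its log2 difference (ASP minus control, means of 2 arrays each) and grouped by complex, with the number of members in parentheses. Filled points have groups that do not overlap, black bars are medians; 65 of 72 points lie above 0 and ndhF stands alone at -0.83.

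Neighbours transcribed together did not share 1 value. In the psbB cluster the differences ran from 0.03 for psbT to 0.26 for petD, in the rpoB cluster from 0.11 to 0.32, and in the atpI cluster from 0.08 for atpA to 0.32 for atpF. The psbE cluster ran from 0.04 for psbF to 0.33 for psbJ, the ndhC cluster from 0.05 to 0.28 and the atpB pair from 0.09 to 0.23. The ndhH cluster ran from -0.05 to 0.23 and the psaA cluster from -0.11 to 0.15. The narrowest clusters were psbD, from 0.14 to 0.23, and psaI, from 0.03 to 0.14. The widest was the ribosomal rpl23 cluster, where 9 of 11 listed genes were members, from -0.03 to 0.46, the upper end being rpoA. The standard errors of single differences started near 0.14 for the steadiest genes, and differences between neighbours were not tested.

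**Figure D4:**
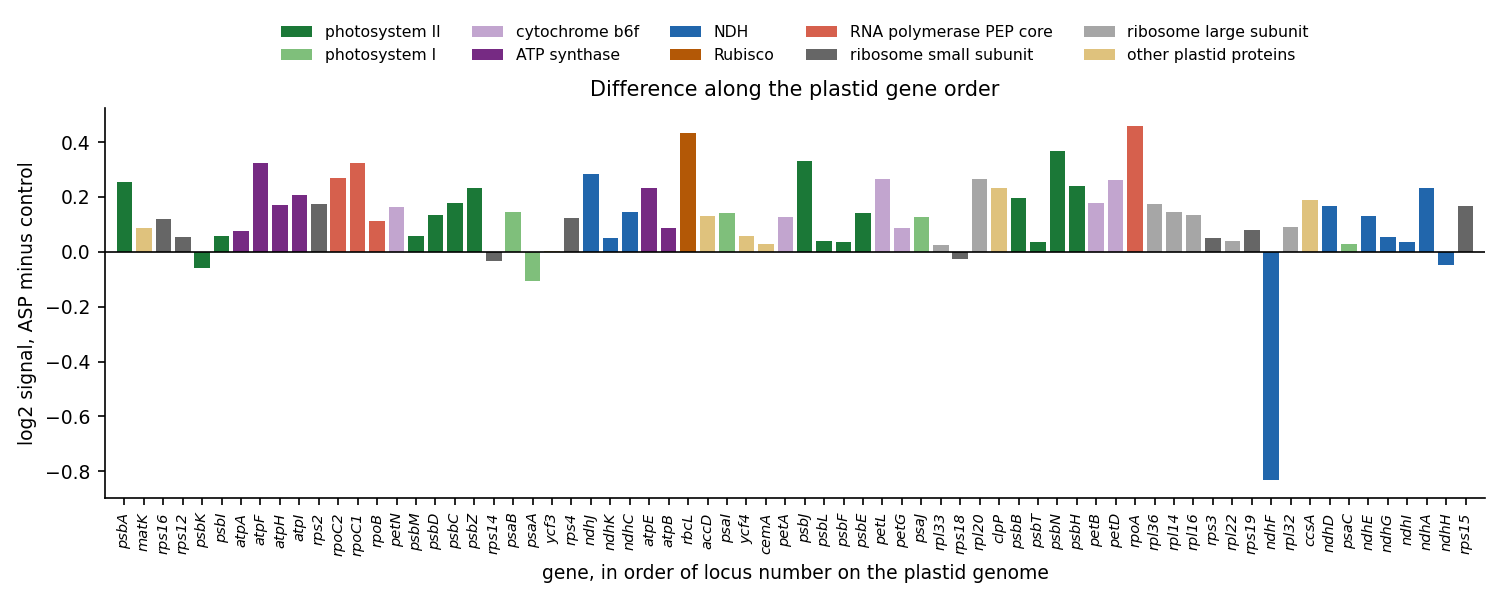
Log2 difference (ASP minus control) of the plastid-encoded genes as bars from 0, in order of locus number along the plastid genome and coloured by complex; 2 of the 72 are not drawn. Differences vary within clusters of neighbouring genes, and ndhF, psaA, psbK, ndhH, rps14 and rps18 lie below 0.

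Grouped by the polymerase that is commonly given for them, 12 of 14 PEP-transcribed genes were higher in ASP, with a median of 0.16 and 8 that did not overlap. The 4 members among 6 listed NEP-transcribed genes, accD and the rpoB cluster, were all higher, with a median of 0.20 and 2 that did not overlap. The genes that did not overlap lay above the controls, as did 21.4% of all probe sets present on all 4 arrays. No gene of either class was called. Many plastid genes have promoters of both kinds, so these classes are not exclusive.

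The spread behind these values differed with brightness. The members were bright, with a median of 12.42 over their mean log2 signals, and 44 had a mean of 12 or more. Among those 44 the median within-group SD was 0.115, beside 0.0917 for the other 693 probe sets that bright. Between 10 and 12 it was 0.247 for 16 members and 0.116 for other probe sets, and between 8 and 10 it was 0.323 for 9 members and 0.145 for others. Members were thus more variable between arrays of a group than other probe sets of the same brightness in these ranges. Among the 44 brightest, 43 were higher in ASP and 45.5% did not overlap with ASP above, beside 51.1% higher and 25.3% not overlapping among the other 693. In the dimmer ranges the share wholly above the controls was no larger than among other probe sets. It was 12.5% of members and 23.0% of others from 10 to 12, 22.2% and 23.1% from 8 to 10, and 0 of 3 members and 14.9% of others below 8.

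The nuclear-encoded subunits of the same photosynthetic complexes also had higher means in ASP, from a list of which 40 of 46 had a probe set of their own. All 40 were higher, with a median difference of 0.22, and both ASP arrays lay above both controls for 32. Of all probe sets present on all 4 arrays, 50.5% were higher and 21.4% lay wholly above. None of the 40 was called with either limma fit. By complex, the medians were 0.22 for 15 genes of photosystem I and its antenna, 0.21 for 11 genes of photosystem II, 0.24 for 2 genes of cytochrome b6f, 0.05 for 3 genes of ATP synthase and 0.28 for 9 genes of NDH. In the NDH complex, CRR23, the NdhL subunit, measured 9.94 and 9.61 in ASP seedlings, against 9.19 and 9.16 in control seedlings, a difference of 0.60 with a limma adjusted p of 0.651. NDF1 of the same complex measured 10.99 and 10.67 in ASP and 10.33 and 10.27 in control seedlings, a difference of 0.53. These values contrast in size with those of the plastid-encoded NDH members, whose largest positive difference was 0.28, though that contrast was not tested. PSAD-2 at 0.40 and PSAN at 0.32 in photosystem I, and PSBO2 at 0.33 and PSBTN at 0.29 in photosystem II, were the genes with the smallest p of their lists. PETC, the Rieske protein, was at 0.22 and AT2G26500, another b6f subunit, at 0.26, while the ATP synthase subunits ATPD and AT4G32260 were at 0.05 and 0.11 with overlapping groups.

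The 2 genomes differed in how the arrays were ordered. ASP replicate 2 exceeded ASP replicate 1 for 64 of 72 plastid-encoded members but for 2 of the 40 nuclear subunits, whose median difference between those arrays was -0.15. For the nuclear subunits the median was 0.30 for ASP replicate 1 against either control and 0.17 and 0.15 for ASP replicate 2 against control replicates 1 and 2. With any 1 array left out, the nuclear median stayed between 0.17 and 0.30.

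**Figure D5:**
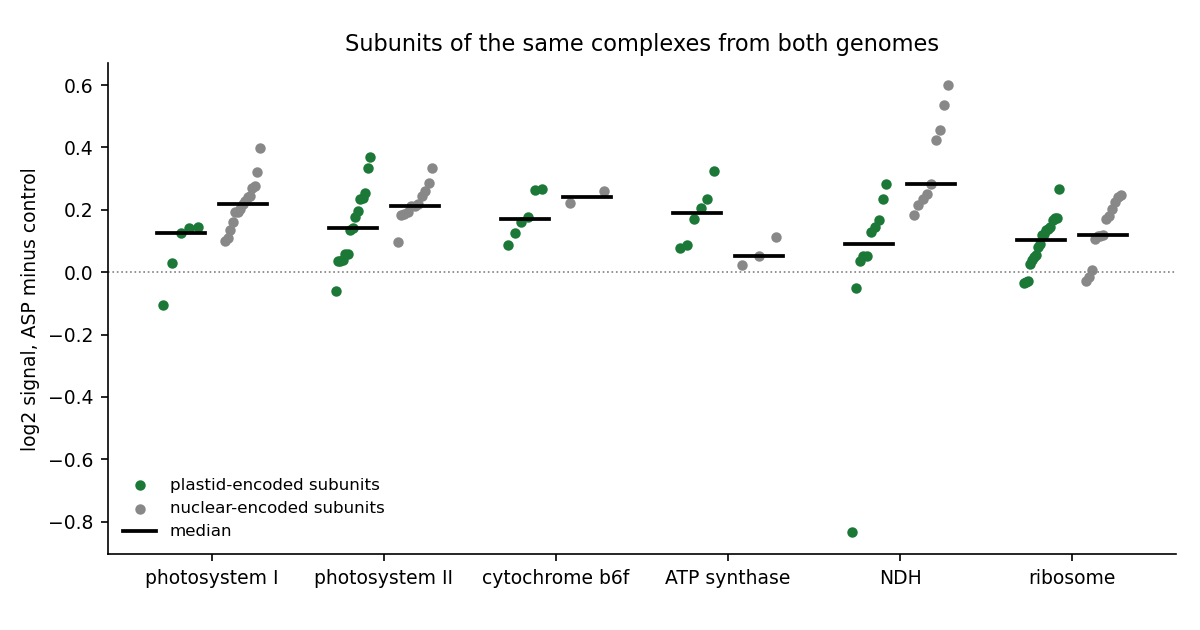
Log2 difference (ASP minus control) of plastid-encoded (green, left) and nuclear-encoded (grey, right) subunits of 5 photosynthetic complexes and the plastid ribosome, each point 1 probe set and each black bar a median. All nuclear photosynthetic subunits lie above 0, and the NDH complex holds both the highest nuclear points, up to 0.60, and ndhF at -0.83.

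Nuclear-encoded proteins of the plastid ribosome were higher in ASP for 11 of 13 measured genes, with a median of 0.12. Of the 13, 8 lay wholly above the controls, against 21.4% of all probe sets present on all 4 arrays, and none was called. AT5G14320, ribosomal protein S13, was at 0.25 and RPS1 at 0.22. The nuclear partners of accD in acetyl-CoA carboxylase lay near 0, with 2 of 3 higher, a median of 0.00 and overlapping groups, CAC2 at 0.02 and CAC3 at -0.03.

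In the nuclear transcription machinery of the plastid no gene was called either, and differences between its kinds of protein were not tested. All 6 sigma factors had higher means in ASP with groups that did not overlap. Of all probe sets present on all 4 arrays, 21.4% lay wholly above the controls. The gap was narrow for SIGF, whose lower ASP array read 9.963 and higher control array 9.961, and for SIGE, at 8.11 and 8.09. Both phage-type polymerases had lower means in ASP. SIG4 (AT5G13730), known for transcription of ndhF, measured 7.503 and 7.39 in ASP seedlings, against 6.82 and 6.88 in control seedlings, a difference of 0.59 with an unadjusted p of 0.020 and a limma adjusted p of 0.573; the difference for ndhF itself was -0.83. SIGC, sigma factor 3, known for psbN, measured 8.13 and 7.96 in ASP and 7.70 and 7.37 in control seedlings, a difference of 0.52, beside 0.37 for psbN. SIGE, the light- and stress-responsive sigma factor 5 known for the psbD promoter, was chosen after its values were seen. Its difference was 0.37, beside 0.14 for psbD, whose groups overlapped and whose direction turned without control replicate 2. SIGA at 0.44, SIG2 at 0.20 and SIGF at 0.08 were not set beside a plastid gene. Of the phage-type polymerases, also chosen after their values were seen, SCA3 had a difference of -0.30, and AT5G15700 was called present on 0 arrays. Among the PEP-associated proteins 10 of 13 measured genes had lower means in ASP, with a median of -0.08. Of the 13, 4 lay wholly below and 1 wholly above the controls. Of the 14261 probe sets present on all 4 arrays, 2930 lay wholly below and 3050 wholly above. FLN2, a kinase-like protein of the PEP complex, measured 9.25 and 9.23 in ASP seedlings, against 9.55 and 9.82 in control seedlings, a difference of -0.45 with a limma adjusted p of 0.711. AT1G10522 (PRIN2), needed for PEP activity, measured 9.92 and 10.002 in ASP and 10.16 and 10.40 in control seedlings, a difference of -0.32. The median of these proteins was -0.22 without control replicate 1 and 0.02 at the other end of the range with 1 array left out.

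Of the nuclear-encoded proteins that process or protect plastid RNA, 11 of 14 had higher means in ASP, with a median of 0.21, and none was called. Of the 14, 6 lay wholly above and 2 wholly below the controls. Of the 14261 probe sets present on all 4 arrays, 3050 lay wholly above and 2930 wholly below. HCF173, which promotes psbA translation and stabilises its RNA, measured 10.61 and 10.28 in ASP and 9.87 and 10.06 in control seedlings, a difference of 0.48 with a limma adjusted p of 0.727, beside 0.25 for psbA. HCF107, which protects psbH RNA, had a difference of 0.26, beside 0.24 for psbH. MRL1, which protects rbcL RNA and was chosen after its values were seen, had a difference of 0.24, beside 0.43 for rbcL. The MRL1 groups barely separated, with a lower ASP array of 9.592 and a higher control array of 9.584. The 3 genes of the list with lower means, emb2746 at -0.22, RHON1 at -0.17 and HCF152 at -0.10, were not set beside a plastid gene. The pairs given are therefore a selection, and their shared direction is no result about such pairs. Whether these proteins and plastid RNAs moved together was not tested.

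Other organelle probe sets lay outside the rule. The 8 probe sets that match 2 plastid loci, mostly the 2 copies in the inverted repeat, were higher in ASP for 7 of 8, with a median of 0.15 and a range from -0.09 for ndhB to 0.23 for rps7. The 43 mitochondrion-encoded probe sets of 1 locus, of which 15 were present on all 4 arrays, were higher for 26, with a median of 0.14 and a range from -2.02 to 2.92. Against 18.5% and 20.9% of all probe sets, 12 of them lay wholly above and 6 wholly below the controls. Their median was 0.25 after quantile normalization, 0.06 with spike-in centring and 0.00 with a linear floor of 50, under which the median of the plastid-encoded members was 0.13.

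Markers of the tissues in a seedling were present as the label implies. Of the mesophyll markers listed 3 of 5 had a probe set of their own, all 3 were detected on all 4 arrays and all 3 had higher means in ASP, CA1 by 0.52, RCA by 0.29 and GAPA by 0.18. Their summed linear signal was 54618 and 49041 in ASP seedlings, against 46493 and 39757 in control seedlings. Of 7 measured root markers, all detected, 5 had lower means in ASP, and their sum was 2182 and 2171 in ASP against 3349 and 2604 in control seedlings. The root markers went both ways. IRT1, the iron transporter of the root epidermis, differed by -1.82, with a limma adjusted p of 0.352, or 0.018 with the intensity trend, and CASP1 of the endodermis by -0.87. SHV2, EXPA7 and SCR differed by -0.32, -0.13 and -0.04, while ALMT1 differed by 0.69 and EIR1 by 0.12. Both guard cell markers were detected, with sums of 122 and 152 in ASP and 139 and 161 in control seedlings. The summed signal of the 72 plastid-encoded probe sets was 484956 and 522490 in ASP seedlings, against 473174 and 441527 in control seedlings. None of the markers was at 0. In whole seedlings, fewer cells of a type and less RNA per cell cannot be told apart, and the part of tissue proportions in the plastid-encoded differences was not tested.

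The control probe sets also moved with the arrays. The 18 hybridisation spike-in probe sets had median log2 signals of 11.14 and 10.92 on the ASP arrays, against 11.11 and 10.80 on the control arrays, and 17 of 18 had higher means in ASP, with a median difference of 0.16. Of 24 labelling spike-in probe sets 20 were higher, with a median of 0.27. For actin, GAPDH and ubiquitin, 6 of 6 probe sets at the 5′ end had lower means in ASP, with a median of -0.19, and 5 of 6 at the 3′ end had higher ones, with a median of 0.04. The arrays called between 15075 and 15706 probe sets present. Their part in the plastid-encoded differences was not tested.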

How the data were processed

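Whole-seedling RNA was labelled by 3′ in vitro transcription for Affymetrix arrays, per the labels. The authors deposited log2 signal, normalized by them, and a detection call for each probe set, per the file headers; how the signal was summarised, and with which genome build, is not given in the sources used here. Their deposited list of differing probe sets gives a p-value and a ratio (fold change), per the file headers, and served only to look up the members. The workbook has 4 further per-sample columns, 2 of log2 signal, whose names fit no sample here, and these were left out.

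After 64 Affymetrix control probe sets were set aside, the other 22746 were fitted together in limma 3.58.1 (R 4.3.3), by lmFit and eBayes without a trend or a block for replicates, two-sided. Benjamini-Hochberg adjustment covered the whole table. Differences are ASP minus control on the log2 scale. Summaries used Python 3.11.15 with pandas 2.3.3. The fit was tested on simulated data. The number of arrays, 2 per group, limits the precision and left 2 residual degrees of freedom.

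The members and gene lists were chosen with earlier results of these data known. The title named the complex of 63 members, and textbook knowledge placed the others. All 72 matched a plastid gene of the RefSeq table for TAIR10.1, used for names and gene order only. Array values are given for rbcL, psbA, psbD, rpoB, accD and clpP, for the brightest member and the largest difference of each complex, for any called member and for the 6 smallest unadjusted p. Single values of 2 members are not reported here, although they enter every count. From each nuclear list the 2 genes with the smallest p are named. Where a gene of the nuclear or marker lists had several probe sets, only the one with the highest mean signal was used. The others were not compared. Alternatives changed the variance model, normalization, filter on dim probe sets, a linear floor of 50, the replicate block and the arrays included.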

Additional observations from a re-analysis of the deposited data

How the results depend on the processing

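With 2 arrays per group these data limit any statement to large or very steady differences. No member was called in any other setting run on all 4 arrays. The calls over all probe sets were 0 without and 72 with the intensity trend, 18 without the dimmest 30% of probe sets and 19 among those present on at least 2 arrays. They numbered 1 with a linear floor of 50 and 321 with the trend and the replicate block together, where NDF1, at 0.53, was among them. Members at an unadjusted p under 0.05 numbered 0 with any 1 array left out, with the block alone or with spike-in centring, 7 with the trend or the t-test, 9 with trend and block and 11 with the floor, beside 2 as reported. The lowest adjusted p of a member was 0.0910 with trend and block, 0.799 with the replicate block alone, 0.212 with the trend, 0.342 with the floor, 0.386 and 0.389 with the filters, 0.673 after quantile normalization, 0.641 in a plain t-test without moderation and 1.00 with spike-in centring. Same-numbered arrays share a number and a letter in the labels, which name no shared batch, and the numbers were not taken to pair them: their deviations correlated at 0.0002 across all probe sets and at -0.53 across the 72 members, opposite in sign for 55 (genes are not independent replicates). The replicate block left 65 members higher and 0 called. Members higher numbered 59 after quantile normalization and 48 with spike-in centring, and their median was 0.11 and 0.05. Leaving out 1 array gave 43 to 69 members higher and medians of 0.0388 to 0.22, the lowest count without control replicate 2. It gave medians of -0.22 to 0.0155 for the PEP-associated proteins, 0.17 to 0.30 for nuclear photosynthetic subunits, 0.18 to 0.31 for sigma factors and polymerases and 0.07 to 0.22 for mitochondrion-encoded probe sets, whose median was 0.25 after quantile normalization, 0.06 with spike-in centring and 0.00 with the floor. Of 352 values of the 22 members the naming rule chose, under other settings, 338 kept their direction, and of 320 values of 20 named nuclear genes 312 did; the cause of the turned ones was not tested. Quantile normalization turned ndhI to -0.0391, psbM to -0.10 and rpl33 to -0.0153. Spike-in centring turned ndhI to -0.0423, psbM to -0.0220, rpl33 to -0.0534, ATPD to -0.0262 and CAC2 to -0.0634. With 1 array left out, these turned in some fit: ndhI (-0.10 to 0.18), psbD (-0.13 to 0.40), psbM (-0.0792 to 0.19), rpl33 (-0.0181 to 0.0697), rpoB (-0.11 to 0.33), rps2 (-0.0068 to 0.36), AT4G32260 (-0.0167 to 0.24), ATPD (-0.0792 to 0.19), CAC2 (-0.0416 to 0.0732) and CAC3 (-0.17 to 0.11).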
